A study of Mus musculus with 36 samples.

Results

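The genes described here were the apolipoprotein genes Apoe, Apoc1, Apoc4 and Apoc2, which lie side by side on mouse chromosome 7, and Apod, which lies alone on chromosome 16. These 5 genes were taken by name from the 55536 genes listed in each library. They were chosen by measured values, since Apoc1 was already known to rise between days 2 and 6 in these counts, so the values of these 5 genes for day 6 against day 2, and that of Apoc1 for day 6 against day 0, are descriptions without a test. Of the 5 genes, 4 passed the filter on low counts, as did 16723 of all genes. Apoc1 and Apoc4 passed through day 6 alone. The filter asks for 10 counts in a library of median size, in at least 6 libraries. All 12 libraries of day 6 and none of the earlier days reached that level. Comparisons of day 6 with the earlier days are therefore descriptions for Apoc4 too. Apoc2 did not pass, and its 36 values are given below.

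The counts came from 36 RNA-seq libraries of mouse brown pre-adipocytes, cells of a clonal line that can be differentiated into fat cells in culture. In all of them the gene of retinoid X receptor alpha (Rxra) had been disrupted by CRISPR editing, and a retrovirus then restored either the wild-type receptor (RxraWT) or a receptor with alanine in place of serine at residue 22 (RxraSA), a site phosphorylated in response to insulin. No library of unedited cells or of Rxra-/- cells without the receptor was analysed here. There were 2 independent Rxra-/- clones, 48 and 66, each a single clone and each sequenced in its own pool, so clone and pool cannot be told apart. Cells of each clone and receptor were harvested at confluence (day 0, in medium with insulin and triiodothyronine), after 2 days with dexamethasone, isobutylmethylxanthine and indomethacin added (day 2), and after return to the first medium until day 6, with 3 libraries for each clone, receptor and day.

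Apolipoproteins are the protein part of lipoprotein particles, which carry triglyceride and cholesterol between tissues. Apoe codes for a ligand by which cells take up lipoprotein remnants. Apoc1 codes for a small protein that hinders remnant uptake and lipolysis, Apoc2 for the cofactor of lipoprotein lipase, and Apoc4 for a minor particle protein. The liver is the main source of the C apolipoproteins, while Apoe is also made by macrophages, glia and adipocytes. Apod is unlike the others in structure: it belongs to the lipocalins, secreted proteins that bind small hydrophobic molecules, and its mRNA is known to be high in arrested fibroblasts.

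Total counts lay between 11351078 and 24349263 per library, with a median of 18338726. Rxra, the edited gene, was counted at 105 to 712 CPM (counts scaled to the size and composition of the library) in the RxraWT libraries and at 92.6 to 621 CPM in the RxraSA libraries. A frameshift need not lower a transcript's counts and the retrovirus added transcript, so this gene is no check of the labels. The 7 adipocyte markers that passed the filter were all called higher at day 2 than at day 0, in a comparison where 73.3% of all genes were called, among them Adipoq, the adipokine adiponectin, with means of 1.81, 484 and 2310 CPM on days 0, 2 and 6. Ucp1, the defining gene of heat-producing brown fat cells, stayed at 2 to 5 counts per library at day 6 and did not pass the filter.

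All of the cluster's genes are transcribed from the minus strand in the order Apoe, Apoc1, Apoc4, Apoc2. On build GRCm38, with GENCODE M21 annotation, Apoe (ENSMUSG00000002985.16) spans chr7:19696109-19699188, Apoc1 (ENSMUSG00000040564.14) chr7:19689481-19692660, Apoc4 (ENSMUSG00000074336.5) chr7:19678083-19681479 and Apoc2 (ENSMUSG00000002992.17) chr7:19671579-19677941. Apod (ENSMUSG00000022548.14) spans chr16:31296192-31314808, also on the minus strand. Neither Apoe, Apoc1 nor Apod shares an exon base with any other annotated gene on either strand, so for these 3 genes the neglect of strand in the counting does not divide their annotated exons.

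The annotation also holds a readthrough gene, Gm44805 (ENSMUSG00000109350.1, chr7:19671584-19681423), whose transcript joins a part of Apoc4 to Apoc2. All of its 765 exon bases are shared, 119 with Apoc4 and 646 with Apoc2. Apoc4 keeps 2418 of its 2537 exon bases to itself (4.69% shared), whereas Apoc2 keeps only 167 of 813 (79.5% shared). Pairs that could not be given to 1 gene alone were left out of the deposited counts. The coding sequences of the 3 C apolipoproteins are printed to show this difference, each 5′ to 3′ as read from the GENCODE transcripts. In Apoc4 and Apoc2 capitals mark the bases that also belong to an exon of Gm44805, and in Apoc1, which shares none, capitals mark the start and stop codons.

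Apoc1, 267 bases, chr7:19689576-19692468, minus strand: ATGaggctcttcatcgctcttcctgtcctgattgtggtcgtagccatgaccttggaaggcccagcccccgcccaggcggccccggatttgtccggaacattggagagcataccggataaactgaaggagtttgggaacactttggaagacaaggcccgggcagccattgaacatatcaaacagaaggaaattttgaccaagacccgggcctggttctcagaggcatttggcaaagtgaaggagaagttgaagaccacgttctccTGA
Apoc4, the first 300 of 375 bases, chr7:19678222-19681380, minus strand: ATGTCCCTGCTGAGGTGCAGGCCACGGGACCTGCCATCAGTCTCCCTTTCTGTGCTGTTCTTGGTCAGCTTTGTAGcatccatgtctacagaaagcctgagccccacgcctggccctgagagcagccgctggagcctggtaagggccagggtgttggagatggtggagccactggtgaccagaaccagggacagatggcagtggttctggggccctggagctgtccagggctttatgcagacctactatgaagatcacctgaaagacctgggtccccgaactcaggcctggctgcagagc
Apoc2, 294 bases, chr7:19671761-19673601, minus strand: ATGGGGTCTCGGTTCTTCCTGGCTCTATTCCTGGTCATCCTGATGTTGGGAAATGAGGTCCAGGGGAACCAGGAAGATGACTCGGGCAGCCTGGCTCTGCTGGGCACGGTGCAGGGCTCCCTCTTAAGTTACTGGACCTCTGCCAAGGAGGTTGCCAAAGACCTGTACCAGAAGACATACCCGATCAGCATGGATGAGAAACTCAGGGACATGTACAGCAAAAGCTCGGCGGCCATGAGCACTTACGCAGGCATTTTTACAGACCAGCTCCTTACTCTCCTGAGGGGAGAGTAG

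In Apoc4 the shared bases were the first 76 of the coding sequence (20.3%). In Apoc2 all 294 coding bases were shared (100%), so that no pair within the Apoc2 coding sequence could be given to Apoc2 alone. A pair could be given to Gm44805 alone only when its ends lay on bases shared with different genes.

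**Figure D1:**
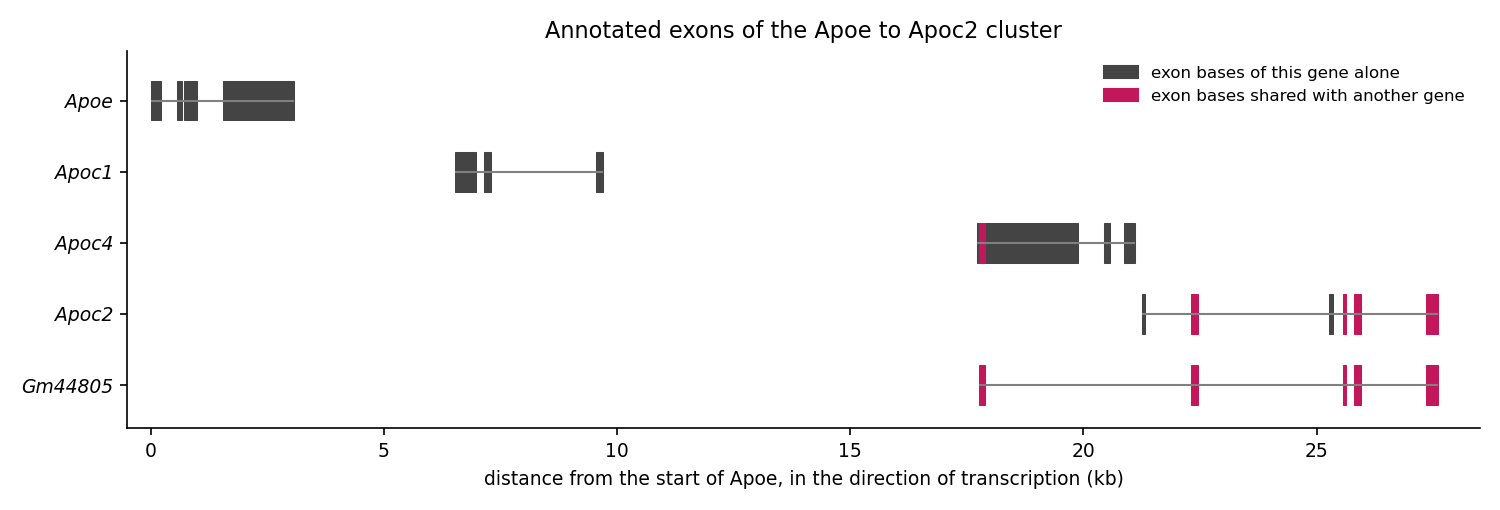
Exons of the 4 cluster genes and of Gm44805 against distance from the start of Apoe in kilobases, in the direction of transcription. Dark boxes are exon bases that belong to 1 gene and red boxes those shared with another; Apoe and Apoc1 have no red box, Apoc4 has 1 of 119 bases, and most of Apoc2 and all of Gm44805 is red.

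Apoc1 was close to absent from the cells until day 2 and was among the more abundant transcripts at day 6. At day 0 its counts per library were 0 at the lowest, 3 at the median and 9 at the highest. At day 2 they were 0, 1.5 and 5. At day 6 they were 2452, 3364 and 4457.

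The lowest day 6 library thus held far more Apoc1 counts than the highest library of either earlier day, and the groups did not overlap. In CPM the day 6 libraries lay at 113 at the lowest, 175 at the median and 256 at the highest, with a mean of 190 ± 46.8 (SD, n = 12). The fitted log2 difference of day 6 from day 2 was 10.68, and from day 0 it was 10.04. From summed counts scaled by library size, day 6 held 1736 times the day 2 level. The 95% interval (exact binomial, counting error only) of 1146 to 2770 describes the precision of that ratio and is no test. Comparisons of days 2 and 6 with day 0 share the same 12 day 0 libraries. In each clone alone the difference of day 6 from day 2 was 10.71 in clone 48 and 10.78 in clone 66. That from day 0 was 10.63 in clone 48 and 9.63 in clone 66, and the difference between these values had an adjusted p of 0.548 in edgeR's quasi-likelihood test.

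Between days 0 and 2 Apoc1 did not pass the test. The log2 difference was -0.64 ± 0.454 (SE) with an adjusted p of 0.202 (edgeR's quasi-likelihood test, Benjamini-Hochberg adjusted over all 16723 genes), and the 95% interval ran from -1.57 to 0.28. Day 2 was the higher of the same-numbered libraries in 3 of 12 pairs.

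Per kilobase of its 744 exon bases, Apoc1 averaged 0.232, 0.144 and 256 CPM on days 0, 2 and 6. By this level it ranked 15098th, 15120th and 136th of 16723 genes on those days, the last within the top 0.813%. Within day 6, the replicate 3 library was the lowest of its 3 in all 4 groups of clone and receptor, at 113 to 172 CPM, against 169 to 256 CPM in replicates 1 and 2. Adipoq was also lowest in replicate 3 in all 4 groups, at 1290 to 2120 CPM there and 1820 to 3450 CPM in the others. For Apoc4, however, replicate 3 was the lowest in 2 of the 4 groups, and for Apoe in 1 of 4. Whether the replicate order of Apoc1 and that of Adipoq were related was not tested.

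Apoc4, the next gene downstream, followed the same course at a lower level. Its counts per library were 0 at the lowest, 0 at the median and 3 at the highest at day 0, and all 6 clone 48 libraries were at 0. They were 0, 1 and 3 at day 2, with 5 of 12 libraries at 0. They were 93, 113.5 and 183 at day 6.

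No fold between days 0 and 2 is given for Apoc4, because no library of either day exceeded 3 counts. At day 6 Apoc4 was at 4.77 to 10.2 CPM, with a mean of 6.54 ± 1.56 (SD, n = 12), and the groups did not overlap. Against day 0 the fitted log2 difference was 7.64. Summed counts of 1416 at day 6 and 6 at day 0 gave a ratio of 255, with a 95% counting interval of 117 to 695. Without the RxraSA replicate 2 library of clone 66, which held 3 of those 6 counts, the fitted difference was 8.81, and with a separate term for each clone, receptor and day it was 8.41. For day 6 against day 2, where 13 counts were summed, the ratio was 101 with an interval of 59 to 191. These Apoc4 intervals also describe counting precision and are no tests.

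The Apoc2 rows held 4 counts in all 36 libraries together (1, 0 and 3 on days 0, 2 and 6), and no library held more than 1. Since pairs within the shared 79.5% of its exon bases could not be counted for it, these counts do not give its level. Gm44805 held 0, 1 and 40 counts on those days, and every library of day 6 had between 1 and 9. The ratio of day 6 to day 2 for Gm44805 was 37.2, with a counting interval of 6.3 to 1504.

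Apoe was present from the start and rose in both intervals. Its counts per library were 13, 15.5 and 31 (lowest, median and highest) before induction, then 15, 25.5 and 38 on day 2 and 57, 83.5 and 137 on day 6. In CPM the means were 0.916 ± 0.26, 1.54 ± 0.34 and 4.76 ± 0.976 (SD, n = 12). The day 6 libraries did not overlap with those of either earlier day, while days 0 and 2 overlapped.

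Apoe rose by a log2 difference of 0.76 ± 0.149 (SE) from day 0 to day 2, with an adjusted p of 2.85e-05 in edgeR's quasi-likelihood test, and day 2 was the higher in 12 of 12 same-numbered pairs. In this comparison 73.3% of all genes tested were called (35.8% higher and 37.5% lower), and of the 3 apolipoprotein genes with more than 3 counts in some library of these days Apoe was called higher, Apod lower and Apoc1 in neither direction. From day 0 to day 6 Apoe rose by 2.38 ± 0.14 (SE), with an adjusted p of 7.22e-17. There 68.3% of all genes were called (32.9% higher and 35.4% lower), and Apoe was called higher and Apod lower. The fitted difference of day 6 from day 2 was 1.62, or 3.07-fold.

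Apod was highest before induction, fell to a few counts by day 2 and lay somewhat higher again at day 6. Its counts per library at day 0 were 17, 102 and 512 (lowest, median and highest), or 0.734, 5.03 and 29.4 CPM. At day 2 they were 0, 2 and 10. At day 6 they were 2, 6.5 and 22.

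The day 0 and day 2 libraries did not overlap. The log2 difference was -5.11 ± 0.356 (SE), with an adjusted p of 6.13e-15 in edgeR's quasi-likelihood test, a 34.5-fold lower level at day 2. Day 6 was also lower than day 0 in 12 of 12 pairs, by -4.10 ± 0.318 (SE) with an adjusted p of 1.19e-13, although the lowest day 0 library lay within the day 6 range. From day 2 to day 6 the fitted difference was 1.00, and day 6 was the higher in 11 of 12 pairs. Thus Apod at day 6 was 17.2-fold below its day 0 level and 2.01-fold above its day 2 level.

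**Figure D2:**
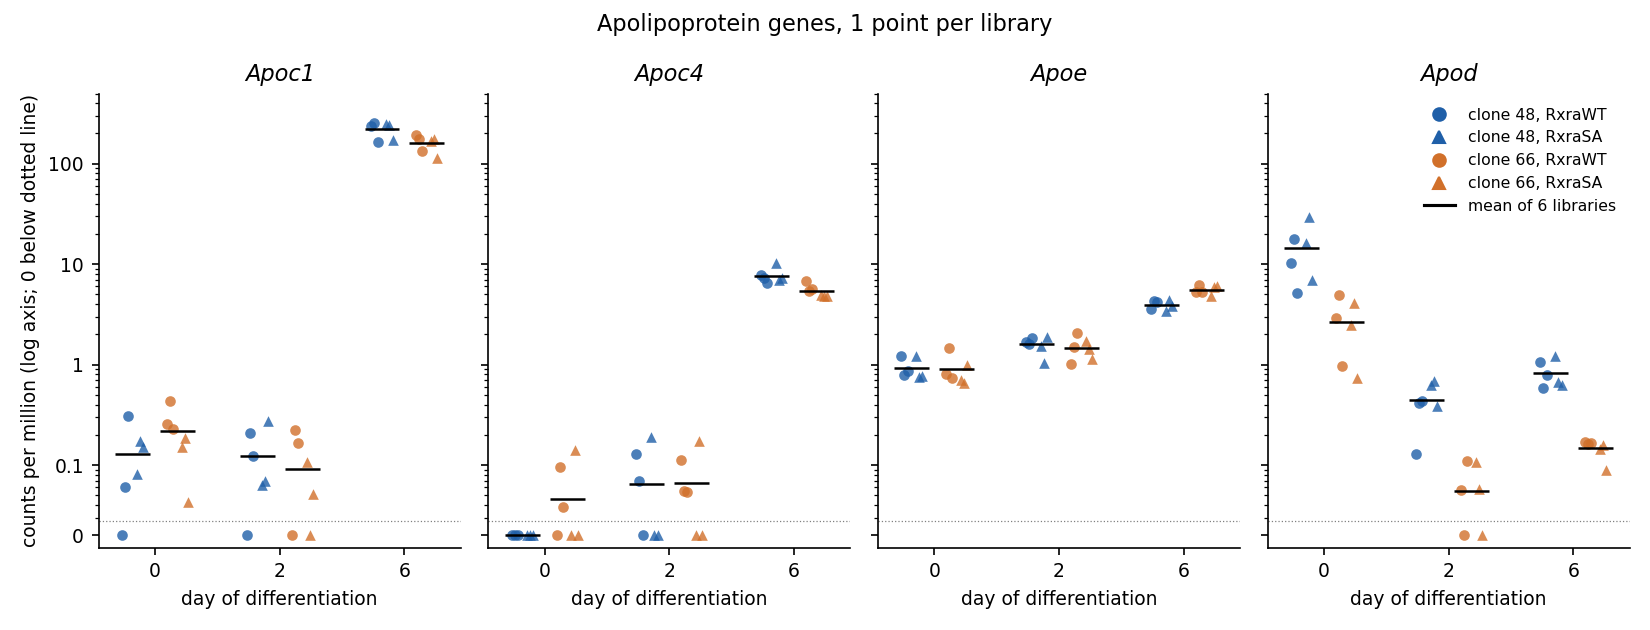
CPM of Apoc1, Apoc4, Apoe and Apod in each of the 36 libraries on a log axis, by day, with clone by colour, receptor by marker and the mean of the 6 libraries of a clone as a bar; libraries at 0 lie below the dotted line. Apoc1 moves from at most 0.43 CPM at days 0 and 2 to 113 CPM or more at day 6, Apoc4 and Apoe also lie highest at day 6, and Apod lies highest at day 0 with clone 48 above clone 66.

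Compared per kilobase, the members were far apart at day 6. On the exon bases of the files, mean levels were 256 CPM per kilobase for Apoc1, 2.58 for Apoc4, 2.23 for Apoe and 0.189 for Apod. Apoc1 exceeded Apoe in 12 of 12 libraries, by 53.3-fold at the lowest, 108-fold at the median and 210-fold at the highest. Apoc4 exceeded Apoe in 7 of 12 libraries, so these neighbours in the order did not differ beyond the spread between libraries.

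This order depended in part on the length used, because the 2537 exon bases of Apoc4 include a transcript that keeps an intron. On the longest well-supported coding transcript of each gene (532 bases for Apoc1, 538 for Apoc4, 1408 for Apoe and 2074 for Apod), the day 6 means were 358 ± 88, 12.2 ± 2.89, 3.38 ± 0.694 and 0.235 ± 0.191 CPM per kilobase (SD, n = 12). On that scale Apoc4 exceeded Apoe in 12 of 12 libraries, with a median ratio of 3.74, and Apoc1 exceeded Apoc4 by a median of 29.8. At day 0 the order of the means was different. Apod led at 4.1 ± 4.15, above Apoe at 0.65 ± 0.185, Apoc1 at 0.324 ± 0.228 and Apoc4 at 0.0426 ± 0.0871. Apod ran from 0.354 to 14.2 there and Apoe from 0.467 to 1.05, so these ranges overlapped. Apod averaged 14.3 CPM in clone 48 and 2.68 CPM in clone 66 at day 0.

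The receptor made no detectable difference to any member tested. No gene of the 16723 was called between RxraSA and RxraWT at any day (0% called, with 139, 162 and 125 genes at an unadjusted p under 0.05 on days 0, 2 and 6), and the adjusted p of every member tested was 1 in edgeR's quasi-likelihood test. At day 6 Apoc1 lay at 135 CPM at the lowest, 183 at the median and 256 at the highest in the 6 RxraWT libraries, and at 113, 173 and 248 in the 6 RxraSA libraries. These groups overlapped almost entirely. The log2 difference was -0.06, with a 95% interval of -0.47 to 0.35.

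For Apoc4 at day 6 the log2 difference of RxraSA from RxraWT was -0.05, with an interval of -0.53 to 0.43. For Apoe it was -0.24, -0.15 and -0.01 on days 0, 2 and 6, and the last interval was -0.36 to 0.34. Apod was less well determined, at 0.24 (interval -0.46 to 0.95) at day 0, 0.63 (-0.83 to 2.09) at day 2 and -0.04 (interval -1.15 to 1.08) at day 6. So was Apoc1 at the earlier days, at -0.70 (interval -1.84 to 0.43) at day 0 and -0.30 (-1.76 to 1.16) at day 2. No member was called for a receptor effect that differed between days or between clones, and neither was any other gene (0% called).

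The clones differed most in Apod, which was lower in clone 66 on every day. At day 0 its 6 clone 48 libraries held 5.19 CPM at the lowest, 13.2 at the median and 29.4 at the highest, and its 6 clone 66 libraries 0.734, 2.7 and 4.88. At day 6 they held 0.582, 0.735 and 1.22 CPM in clone 48 and 0.0892, 0.159 and 0.169 in clone 66. The clones did not overlap on either day.

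The log2 difference of clone 66 from clone 48 in Apod was -2.39 ± 0.366 (SE) at day 0, with an adjusted p of 9.79e-06 in edgeR's quasi-likelihood test, in a comparison where 23.7% of all genes were called. It was -2.82 ± 0.869 at day 2 (adjusted p 0.0137, 30.0% of genes called) and -2.45 ± 0.626 at day 6 (adjusted p 0.00376, 26.2% of genes called). Clone 66 held only 6 Apod counts at day 2 and 17 at day 6, against 42 and 85 in clone 48, and the ratio of clone 48 to clone 66 from summed counts was 8.13 (95% counting interval 3.44 to 23.4) at day 2 and 5.69 (3.35 to 10.2) at day 6. The fall of Apod from day 0 to day 2 was present in each clone, by -5.00 ± 0.463 (SE) in clone 48 and -5.43 ± 0.651 in clone 66, and its size was not called different between them (log2 difference of differences -0.43, adjusted p 0.868 in edgeR's quasi-likelihood test, where 6.84% of all genes were called).

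Apoe differed between clones at day 6 and was not called at the earlier days. Its 6 clone 48 libraries lay at 3.39 to 4.36 CPM and its 6 clone 66 libraries at 4.87 to 6.17 CPM, without overlap. The log2 difference was 0.50 ± 0.164 (SE), with an adjusted p of 0.0219 in edgeR's quasi-likelihood test. Without the RxraWT replicate 1 library of clone 48 the adjusted p was 0.0579, and without the RxraWT replicate 2 library of clone 66 it was 0.0548. At day 0 the difference was -0.06 (adjusted p 0.881) and at day 2 it was -0.11 (adjusted p 0.712), but the change in clone difference from day 2 to day 6 was itself not called (adjusted p 0.173, where 6.18% of all genes were called), nor was that from day 0 to day 6 (adjusted p 0.332, where 3.85% were called).

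The fitted clone differences of Apoc1 and Apoc4 at day 6 had the opposite sign to that of Apoe and were not called. Apoc1 lay at 163 to 256 CPM in clone 48 and at 113 to 191 CPM in clone 66, with overlap, and its log2 difference of clone 66 from clone 48 was -0.47 ± 0.197 (SE) with an adjusted p of 0.0807 in edgeR's quasi-likelihood test. In the fit blocked by replicate number, the difference of Apoc1 was also -0.47 and its adjusted p was 0.00599. Apoc4 lay at 6.52 to 10.2 CPM in clone 48 and at 4.77 to 6.83 CPM in clone 66, also with overlap, and its difference was -0.51 ± 0.234 with an adjusted p of 0.117, or 0.0372 with the replicate block.

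**Figure D3:**
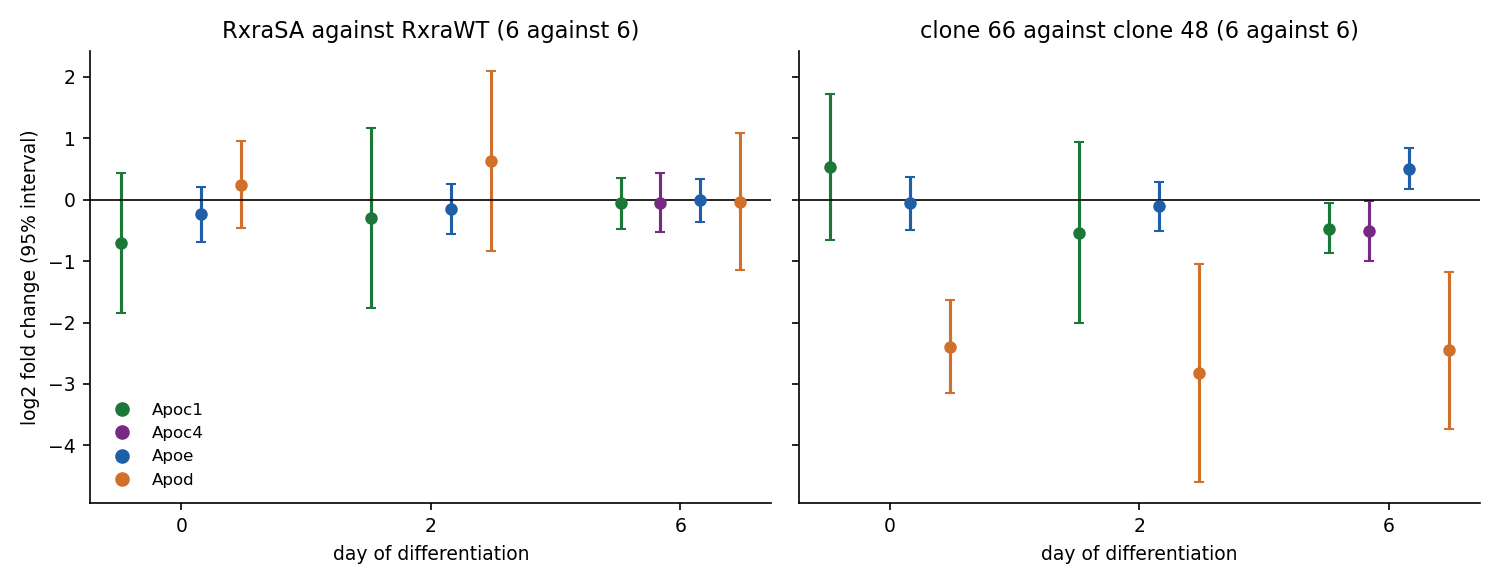
Log2 fold changes of Apoc1, Apoc4, Apoe and Apod with their 95% intervals at days 0, 2 and 6, for RxraSA against RxraWT (left) and clone 66 against clone 48 (right), each from 6 against 6 libraries; Apoc4 is shown at day 6 only. Every interval on the left includes 0, while on the right Apod lies below 0 on all 3 days and, at day 6, Apoe lies above 0 and Apoc1 and Apoc4 below 0, of which Apoc1 and Apoc4 were not called after adjustment.

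The genes around the cluster moved far less than Apoc1 and Apoc4. Of 14 other annotated genes within 100 kb of the cluster, 8 passed the filter. From day 0 to day 6, 4 of the 8 were called higher and 2 lower, where 68.3% of all genes were called. Between days 0 and 2, 2 were called higher and 2 lower, where 73.3% of all genes were called. From day 2 to day 6, 2 were called higher and 4 lower, where 62.0% of all genes were called (31.9% higher and 30.1% lower), and their log2 differences lay between -0.93 and 1.62.

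Tomm40, the mitochondrial import channel gene next to Apoe, had 32.8, 99.1 and 59.4 CPM on average at days 0, 2 and 6. It rose by 1.63 ± 0.121 (SE) from day 0 to day 2 and lay 0.74 log2 units lower at day 6 than at day 2 (-0.74 ± 0.118), with adjusted p of 3.61e-14 and 1.39e-06 in edgeR's quasi-likelihood test. Nectin2, a cell adhesion receptor gene further upstream, fell by 0.54 on the log2 scale from day 0 to day 2 and was then 1.62 ± 0.0892 higher at day 6 than at day 2 (adjusted p 2.77e-17). On the Apoc2 side, Clptm1, a membrane protein gene, rose by 1.01 to day 2, and Relb, a subunit of NF-kappaB, fell by 0.69 on the log2 scale to day 2 and was 1.06 higher at day 6. Clasrp and the noncoding Gm26890 were called in neither comparison with day 0. Exon bases were shared by Gemin7 and Zfp296 (263), and by the antisense gene Gm20512 with Tomm40 (258) and with Nectin2 (135), where strand-blind counting cannot assign a pair. None of these 8 genes shared the course of Apoc1, with a level near 0 until day 2.

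**Figure D4:**
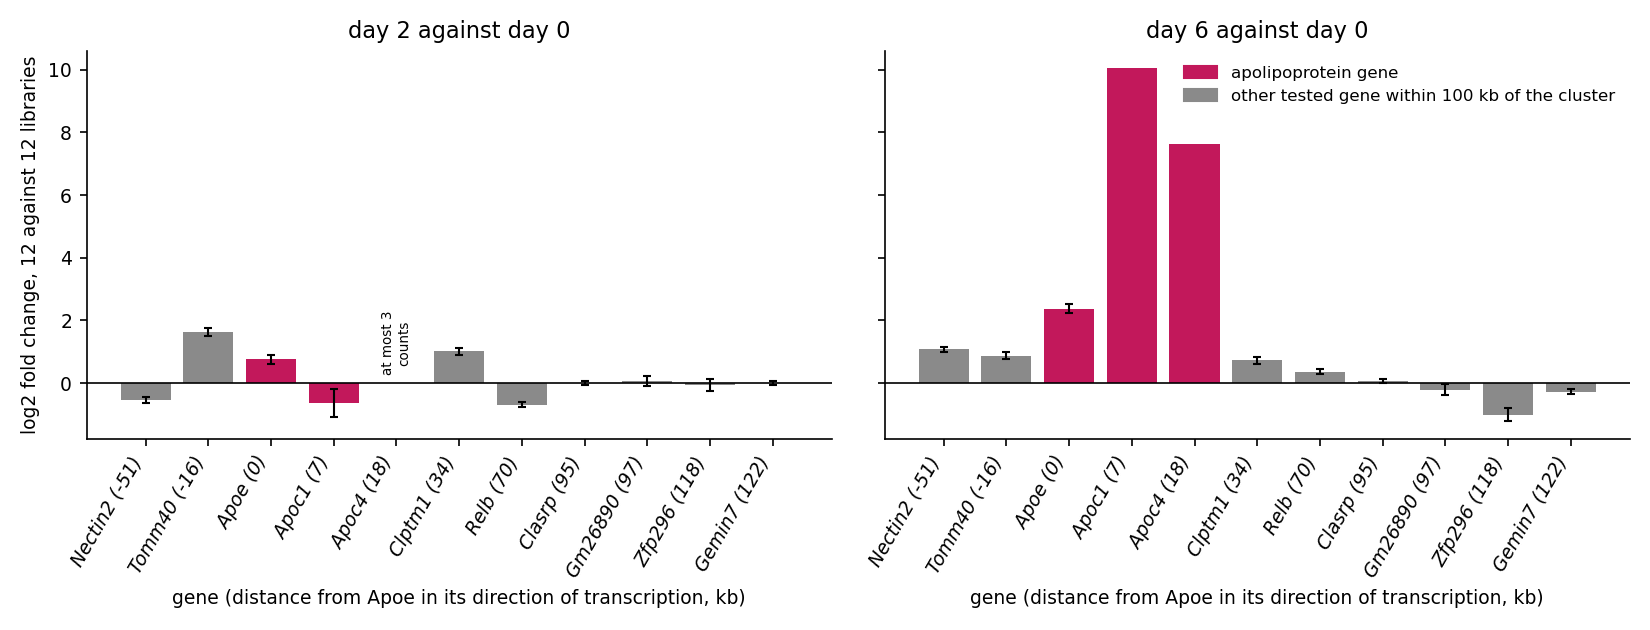
Log2 fold changes with standard errors of the 11 tested genes of the cluster and its surroundings, ordered along the chromosome with their distance from Apoe in kilobases, for day 2 against day 0 (left, without a bar for Apoc4) and day 6 against day 0 (right). Apoc1 (10.04) and Apoc4 (7.64), shown at day 6 without errors as descriptions, stand above all other bars at day 6, and no neighbour outside the apolipoprotein genes exceeds 1.08 there.

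Around Apod, 4 of 10 other genes within 100 kb passed the filter. Gm41442, a long noncoding RNA gene, fell by 1.51 on the log2 scale from day 0 to day 2 (SE 0.177, adjusted p 2.15e-09 in edgeR's quasi-likelihood test), from 3.48 to 1.21 CPM on average. Gm27415, annotated as a microRNA within the span of Ppp1r2, fell by 0.98 at a low level, from 0.501 to 0.244 CPM on average. The protein-coding neighbours Acap2 and Ppp1r2 differed by -0.24 and 0.00. The fall of Apod in the same comparison was -5.11.

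RefSeq promoter windows, 250 bases before to 50 after the start, were at hand for 4 of the 5 genes, without Apoc1. Those of Apoc4 and Apoe are printed because both genes lay highest at day 6, though by different courses. That of Apod is printed because it fell. All are given 5′ to 3′ on the minus strand of GRCm38.p6. Capitals mark the letters AGGTCA, the core motif of many nuclear receptor sites including those of RXR partners, on either strand, and the longest run that the windows of Apoc4 and Apoe have in common.

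Apoc4, chr7:19681411-19681710, minus strand: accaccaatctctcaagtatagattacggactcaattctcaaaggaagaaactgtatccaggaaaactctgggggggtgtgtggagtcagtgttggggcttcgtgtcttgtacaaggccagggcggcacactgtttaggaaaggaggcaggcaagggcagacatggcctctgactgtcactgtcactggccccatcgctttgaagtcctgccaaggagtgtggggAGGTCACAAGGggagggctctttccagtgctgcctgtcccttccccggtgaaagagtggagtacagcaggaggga
Apoe, chr7:19699139-19699438, minus strand: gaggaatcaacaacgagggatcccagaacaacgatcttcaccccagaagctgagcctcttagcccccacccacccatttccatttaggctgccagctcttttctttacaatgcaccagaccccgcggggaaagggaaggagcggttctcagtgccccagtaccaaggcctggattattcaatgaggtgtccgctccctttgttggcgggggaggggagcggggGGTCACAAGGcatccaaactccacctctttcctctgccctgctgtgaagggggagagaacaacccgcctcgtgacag
Apod, chr16:31314759-31315058, minus strand: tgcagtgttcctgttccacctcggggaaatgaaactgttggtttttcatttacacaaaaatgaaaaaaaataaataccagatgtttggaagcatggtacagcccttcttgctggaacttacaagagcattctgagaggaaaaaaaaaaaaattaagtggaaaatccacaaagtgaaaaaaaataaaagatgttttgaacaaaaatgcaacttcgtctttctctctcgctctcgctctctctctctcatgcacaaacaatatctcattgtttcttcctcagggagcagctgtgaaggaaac

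AGGTCA, searched on both strands, was found 1 time in the Apoc4 window, 2 times in that of Apoc2 and not in those of Apoe or Apod. It was present in 16.3% of all 32851 windows of that length. TATAAA was in none of the 4 windows and in 13.6% of all windows. The common run of Apoc4 and Apoe was GGTCACAAGG, 10 bases that overlap AGGTCA in the Apoc4 window, and it began 24 bases before the Apoc4 start and 27 bases before the Apoe start. It was chosen after the sequences were seen and was present on either strand in 42 of all windows (0.128%). These are matches of letters only.

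The genes most like each member over the 12 means of clone, receptor and day were sought among 11626 genes by Pearson correlation of log2 CPM. For Apoc1 they were Acbd4 (r = 0.9953), Gpt (0.995) and Selenbp1 (0.9941), and Apoc4 itself reached 0.994. Gpt, which codes for alanine aminotransferase, had mean levels of 8.04, 5.09 and 166 CPM at days 0, 2 and 6. Selenbp1, a selenium-binding protein gene, had 2.69, 2.56 and 199 CPM.

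For Apoc4 the most like genes were Apol6 (0.9949), a member of the unrelated apolipoprotein L family, the glycolytic enzyme gene Tpi1 (0.9943) and Pald1 (0.9927). For Apoe they were Anks1 (0.9938), the oxygen-sensing prolyl hydroxylase gene Egln1 (0.9931) and Slc48a1 (0.9911), a heme transporter gene, and Apoe correlated at 0.925 with Apoc1 and 0.943 with Apoc4. For Apod they were B230219D22Rik (0.9957), Ntn4 (0.9882), a secreted netrin gene at 18.9, 0.762 and 1.42 CPM, and Spin4 (0.988). All points of these correlations share libraries, days and clones, and the 12 means fall into 3 days, so the values are descriptions.

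Of 11 other secreted apolipoprotein genes, 7 passed the filter. From day 0 to day 6, 3 were called higher and 2 lower, where 68.3% of all genes were called, with a median log2 difference of -0.01 over the 7 against -0.034 over all genes. The 5 include Apoa1 and Apoh, which passed the filter through day 6 alone and day 0 alone. Between days 0 and 2, 2 were called higher and 3 lower, where 73.3% of all genes were called. Apoc3, an inhibitor of lipoprotein lipase and of remnant uptake, had no count in any day 0 library, 3 to 20 counts per library after 2 days and 84 to 262 after 6 days. Against a floor of 3 counts per library at day 0, its mean CPM was at least 3.63-fold higher at day 2 and at least 61.8-fold higher at day 6.

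Apoc3 lies with Apoa1, Apoa4 and Apoa5 on chromosome 9. Apoa1, the main protein of high-density lipoprotein, was at 0.0551, 0.118 and 0.679 CPM on average at days 0, 2 and 6, with 0 to 4, 0 to 5 and 6 to 20 counts per library. Clu, the chaperone clusterin, fell by 1.01 on the log2 scale to day 2 and was 3.09 higher at day 6 than at day 2. Apob, the scaffold of very-low-density lipoprotein, fell by 1.66 to day 2, and Apom was called in no comparison of days.

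Cells take up apolipoprotein particles through lipoprotein receptors. Of 11 genes of lipoprotein receptors and their adaptors, 7 passed the filter. From day 0 to day 2, 3 were called higher and 3 lower, where 73.3% of all genes were called, and from day 0 to day 6, 3 were called higher and 1 lower, where 68.3% of all genes were called. From day 2 to day 6, 6 were called higher and 1 lower, where 62.0% of all genes were called (31.9% higher), with a median log2 difference of 0.64 over the 7 against 0.012 over all genes. Lrpap1, a chaperone of lipoprotein receptors, was at 79.3, 126 and 467 CPM on days 0, 2 and 6, and Sort1, the sorting receptor sortilin, at 19.4, 179 and 345 CPM. Vldlr did not pass the filter, with at most 4 counts in any library.

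Among lipoprotein lipases and their regulators, 7 of 9 passed the filter, of which Angptl8 passed through day 6 alone. At day 6, 6 were called higher and 1 lower than at day 0, where 68.3% of all genes were called (32.9% higher), with a median log2 difference of 0.97 against -0.034 over all genes. At day 2, 5 were called higher and 1 lower than at day 0, where 73.3% of all genes were called. Lpl, the lipoprotein lipase that Apoc2 activates, was at 653, 3220 and 4070 CPM at days 0, 2 and 6. Its inhibitors differed in time: Angptl4 was at 76.1, 559 and 116 CPM, while Angptl8 was at 0.152, 0.0932 and 11 CPM, with at most 6, at most 5 and 66 to 484 counts per library. Angptl8 thus shared with Apoc1 a low level until day 2.

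The oxysterol receptors LXR pair with RXR. They are known to act on the Apoe to Apoc2 cluster in macrophages, and on Apoe in fat cells. All 9 genes of the list drawn up for LXR receptors and their targets passed the filter. Between days 0 and 2, 5 were called higher and 3 lower, where 73.3% of all genes were called, and from day 0 to day 6, 6 were called higher and 3 lower, where 68.3% of all genes were called. Those called lower in both comparisons were Mylip, Pltp and Lcat. From day 2 to day 6, 8 were called higher and none lower, where 62.0% of all genes were called (31.9% higher), with a median log2 difference of 0.90 against 0.012 over all genes. Nr1h3, which codes for LXR alpha, was at 9.99, 35.6 and 79.9 CPM. Abca1, the cholesterol exporter, was at 1.35, 72.6 and 318 CPM and rose by 5.70 ± 0.195 (SE) to day 2 (adjusted p 1.73e-23 in edgeR's quasi-likelihood test). In that interval Apoe was called higher, by 0.76, and Apoc1, with at most 9 counts per library, was not called. The part of LXR in these changes was not tested. Pltp, a phospholipid transfer protein gene, was at 85.9, 6.31 and 17.3 CPM, lower at both later days.

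Apod was also set beside the other lipocalins, of which 8 of 9 passed the filter. At day 2, 5 of them were called higher than at day 0 and 1 lower, where 73.3% of all genes were called. The median log2 difference was 2.79 over the 8, against -0.015 over all genes. Those 8 include Rbp4, which passed the filter through day 6 alone. It had no count at day 0 and at most 1 per library at day 2. Lcn2, lipocalin 2, was at 0.126, 188 and 1.77 CPM, and Orm1, an acute-phase glycoprotein gene, at 0.451, 28.8 and 132 CPM. The lipocalin called lower was Ptgds, a prostaglandin synthase gene that passed the filter through day 0 alone, at 0.792, 0.0247 and 0.252 CPM, so Apod was not alone in the family in being lowest at day 2. Of 6 pre-adipocyte and fibroblast markers, 4 passed the filter, without Thy1 and Dpp4. All 4 were called lower at day 2 than at day 0, where 37.5% of all genes were called lower. Among them were Ly6a at 52.6, 3.67 and 1.74 CPM and Col1a1 at 145, 8.97 and 44.4 CPM.

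Markers of other cell types were examined in the same libraries. Of 13 macrophage markers, 4 passed the filter, and their summed level was 13.7 to 21.7, 5.08 to 8.45 and 9.01 to 15.4 CPM on days 0, 2 and 6. On day 6 Adgre1, Ptprc, Itgam, C1qa, C1qb and C1qc were at 0 in every library. Cd68, a lysosomal protein gene, held 101 to 201, 42 to 86 and 115 to 204 counts per library on days 0, 2 and 6, and Cd14, a lipopolysaccharide co-receptor gene, 72 to 266, 14 to 61 and 24 to 87. From day 2 to day 6, when Apoe, Apoc1 and Apoc4 also lay higher, Cd68, Cd14 and Lyz2 were called higher, by log2 differences of 1.14, 0.91 and 2.10. Fcgr1 was called lower, by -2.01, where 62.0% of all genes were called. Lyz2 passed the filter through day 0 alone, with at most 3 counts per library at day 2 and at most 8 at day 6. Against day 0, Cd68 was called higher at day 6 (0.27), where 68.3% of all genes were called. Cd14, Lyz2 and Fcgr1 were called lower there (-1.35, -3.82 and -1.43). None of 5 hepatocyte markers passed the filter, with a summed level of at most 0.443 CPM in any library. The 6 Schwann and glial markers, of which 4 passed, were summed at 7.6 to 22.1, 1.49 to 3.45 and 3.8 to 11.3 CPM on those days, and the 5 endothelial markers, of which 2 passed, never exceeded 2.43 CPM. The part of these markers in the course of the apolipoprotein genes was not tested. In bulk libraries a change in the number of cells that express a gene and a change in the amount per cell cannot be told apart.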

How the data were processed

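From stranded total RNA libraries, the authors mapped reads to GRCm38 with STAR 2.7.0d and counted pairs on GENCODE M21 exons with featureCounts 1.6.2. They deposited raw counts per gene, 1 file per library, in which strand was ignored. Pairs that could not be given to 1 gene alone were left out. All 55536 identifiers matched the annotation.

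The 36 libraries were grouped by the sample labels. The deposited design calls the 3 replicates technical and the methods call them independent, so p-values may measure technical spread only. No replicate pair was a duplicate (chi-square per degree of freedom 12.02 to 188.1). Same-numbered RxraWT and RxraSA libraries of a clone and day deviated together, with correlations of 0.176 to 0.93 (median 0.827) in 18 pairs. Whether same-numbered libraries of different days belong together was not examined, so pair counts across days rest on the labels alone.

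Genes were filtered with edgeR 4.0.16 (filterByExpr), which kept 16723, and were scaled by TMM. The quasi-likelihood test was fitted across all libraries with a term for each receptor and day and a clone term, and p-values were adjusted over all genes at a threshold of 0.05. The fit was tested on simulated data. CPM used the scaled library sizes. Exact binomial intervals at the 95% level cover counting error only, and 3 counts per library served as the floor. DESeq2 1.42.0 and 9 other settings were tried, and each library was left out in turn.

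The 5 genes and the 11 lists of related genes were chosen with earlier results of these data known. Named besides them were the genes within 100 kb, up to 4 called genes of largest change per list and comparison, other list members named for their function, and the 3 genes of highest correlation with each member. Sequences came from GENCODE transcripts and RefSeq promoter windows.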

Additional observations from a re-analysis of the deposited data

How the results depend on the processing

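The changes of Apoe and Apod from day 0 to days 2 and 6 kept their direction and call in the 9 alternative fits and in all 36 leave-one-out fits. Scaled by library size alone, the median of all genes moved to -0.27 (day 2 against day 0) and -0.22 (day 6 against day 0), and the share of calls that were higher was 33.6% and 34.9%, against 48.9% and 48.2% with TMM. Relative to that median Apoe still rose. With the replicate block, the day 6 clone difference of Apoc1 was -0.47 (adjusted p 0.00599) and that of Apoc4 -0.50 (0.0372), and the counts of genes whose clone difference changed were 2248, 1369 and 2082 (days 0 to 2, 0 to 6 and 2 to 6). It changed no other call of a member. Genes called for a receptor effect that differed between clones at day 0 were 3 with the replicate block, 4 with a block within each day, 5 without the filter and 1 with DESeq2. The block within each day called 1 such gene at day 2, 3 at day 6, and 1 gene for RxraSA against RxraWT at day 2. The day 6 clone difference of Apoe was 0.44 (adjusted p 0.0503) with library size alone and 0.53 (0.0605) without the filter. That of Apoc1 was -0.53 (0.0494) with library size alone and -0.47 (0.0334) with DESeq2, and that of Apoc4 was -0.52 (0.00521) with DESeq2 and -0.50 (0.0157) with the compared days alone. Without the filter, RxraSA against RxraWT in Apoe at day 6 was 4.40e-04. The cause of these shifts was not tested.

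With each library left out in turn, the day 6 clone difference was 0.46 to 0.55 for Apoe and -0.55 to -0.36 for Apoc1, which was called without the RxraWT replicate 3 (adjusted p 0.0409) or the RxraSA replicate 3 library of clone 48 (0.0481). Clone differences of Apoe that were not called ran from -0.27 to 0.0531 at day 0 and from -0.26 to 0.00526 at day 2. RxraSA against RxraWT ran from -0.0832 to 0.059 for Apoe, -0.13 to 0.0364 for Apoc1, -0.18 to 0.00894 for Apoc4 and -0.30 to 0.0969 for Apod at day 6, from -0.92 to 0.0103 for Apoc1 at day 2 and from -0.0849 to 0.53 for Apod at day 0. Counts of at most 9 for Apoc1 and at most 3 for Apoc4 at days 0 and 2 limit every statement on those days.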

Other observations

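The gene Apoa4, which lies on chromosome 9 with Apoc3 and Apoa1, did not pass the filter, but its counts followed a similar course. It had no count in any of the 12 libraries at day 0, between 0 and 6 per library at day 2 (34 in all) and between 3 and 15 at day 6 (92 in all). Apoa5, also on chromosome 9 with them, did not follow that course. It had 12, 5 and 13 counts in all at days 0, 2 and 6, with at most 3 in any library. Apoa2, which lies elsewhere, had 3, 4 and 1 counts in all at days 0, 2 and 6. Rbp4, a lipocalin that carries retinol, had no count at day 0, at most 1 per library at day 2 and 18 to 103 at day 6, where its mean CPM was at least 21.4-fold above a floor of 3 counts per library at day 0. These genes were singled out after their values were seen.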
